A study of Komagataella pastoris with 60 samples.

Results

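The 200 longest host genes of *Pichia pastoris* GS115 were taken by ranking the genes of the deposited tables on their listed length, among those with more than 10 reads in at least 2 mRNA libraries. This filter kept 5228 of 5319 host genes, and 0 of the 91 genes that failed it were as long as the shortest of the 200. No measured ratio entered the choice. The longest, Pipas_chr1-1_0187, was listed at 14852 bases, followed by Pipas_chr2-1_0744 at 12449 and Pipas_chr1-4_0571 at 11477. The median length was 4442 bases against 1154 over the ranked genes, and 57 of the 200 exceeded 5000 bases. At the edge of the list, Pipas_chr2-1_0811 and Pipas_chr4_0831 were just inside with 3569 bases each, and Pipas_chr2-1_0065 (3566) and Pipas_chr2-2_0013 (3557) were just outside. Among genes listed in 1 part, the listed length plus 1 was a multiple of 3 in 99.9%, so it is a coding length without untranslated regions. For genes listed in more than 1 part it appears to be that of a single part. 4 of the 200 are of this kind, and their rank is uncertain.

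The wild type (wt) was GS115 carrying 1 copy of a phytase gene (Phy) from *Citrobacter amalonaticus* behind the methanol-induced *AOX1* promoter. The *rpl38*∆, *rpl9a*∆, *rps7*∆ and *rps25*∆ strains were derived from it, each by deletion of 1 ribosomal protein gene through homologous recombination, and each was studied as 1 line. All 5 strains, wt included, therefore made Phy during the culture. Cells were collected at 24, 48 and 72 h of culture in methanol medium, in 2 replicates, and treated with cycloheximide, which stops ribosomes on the mRNA. By the study's methods each sample was then divided, for total mRNA (mRNA) and for the mRNA that sedimented with ribosome–nascent chain complexes (RNC-mRNA), giving 60 libraries.

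A ribosome joins an mRNA near its 5′ end and leaves after the stop codon, so a long coding region keeps each ribosome for a longer time and has room for many. RNC-seq counts mRNA molecules that carry any ribosome, not the number of ribosomes on them. The ratio of RNC-mRNA to mRNA is taken here as the relative engagement of a gene's transcripts in translation. By the study's methods, the RNC aliquot was lysed, cleared and pelleted through sucrose, while the aliquot for total RNA went directly into TRIzol. PolyA+ mRNA was then selected from both. Whether this difference in handling changed the recovery of long mRNA was not tested. In *Saccharomyces cerevisiae*, ribosome density is known to fall with the length of the coding region. The longest proteins of that yeast include the dynein heavy chain, the ribosome assembly ATPase midasin and subunits of large complexes. The files pair the *P. pastoris* IDs with no names, 0 of the 5319 IDs matched the reference gene table, and 0 of the 200 genes were on the study's lists of 86 ribosomal protein genes and 55 chaperone genes, the longest of which had 1166 and 2711 bases. The genes are therefore given by ID, with at most 2 in each direction of a comparison, and no function is assigned to them.

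An mRNA library held between 2970406 and 15476958 reads on host genes, with a median of 6595444, and an RNC-mRNA library between 1508702 and 13532265, with a median of 4915156.5. The gene deleted in each strain was lower there than in any library of the other strains, in 8 of 8 comparisons of strain and assay. Of the RNC-mRNA libraries, the second one of *rpl9a*∆ at 72 h stood apart. Over genes it agreed less with the mRNA libraries of its strain and time than any of the 29 others did with theirs. Values for *rpl9a*∆ averages against wt, for *rpl9a*∆ at 72 h and over all groups are given without it as well. They are also given without the first one of the same group. The libraries give relative amounts, and in bulk cultures fewer cells with a transcript and less of it per cell cannot be told apart.

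The 200 longest genes were well covered. All 200 had more than 10 reads in each of the 30 mRNA libraries, and 191 had so in each of the 30 RNC-mRNA libraries, with 19 RNC-mRNA libraries for the gene with the fewest. The median gene of the list had a mean of 1200 reads per wt mRNA library, against 572 over the ranked genes. In wt RNC-mRNA the order was the other way round, with 173 reads against 183. The biological coefficient of variation, which is the spread between replicates beyond counting error, had a median of 8.53% in mRNA over the 200 genes and 9.16% over all genes tested.

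Per base the long genes were expressed at a low level. Over the 196 members of 1 part the median of the mean wt mRNA level was 30.2 RPKM (reads per kilobase of listed length and per 1000000 reads), with the middle 80% of genes between 10.8 and 99.1. The 4606 other ranked genes of 1 part had a median of 53.9 RPKM, with 15.5 to 291 for the middle 80%. In RNC-mRNA the median of the long genes was 8.11 RPKM against 32.9. Pipas_chr2-1_0280, of 4409 bases, had the highest mean over the mRNA libraries with 414 RPKM. Pipas_chr1-3_0083, of 6620 bases, had the lowest with 6.15 RPKM. The IDs of the 200 genes carried each of the chromosome prefixes, with 57 on chr1, 60 on chr2, 42 on chr3, 31 on chr4 and 10 on other scaffolds, which was 3.16% to 5.59% of the ranked genes of the prefix.

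The first question was how the long genes divide between mRNA and RNC-mRNA in wt. The log2 ratio of RNC-mRNA to mRNA, averaged over the 3 times, had a median of −1.27 over the 200 genes and −0.06 over the 5241 genes tested. 194 of the 200 were lower in RNC-mRNA than in mRNA and 0 were higher (edgeR's quasi-likelihood test on the 60 libraries, adjusted p under 0.05). Over all genes tested 40.8% were lower and 37.3% higher. By unadjusted p under 0.05, 195 of the 200 differed, and DESeq2 also called 0 of them higher. In TMM-scaled CPM, that is reads per 1000000 after edgeR's scaling of libraries, 175 of the 200 had all 6 wt RNC-mRNA libraries below all 6 wt mRNA libraries, against 27.0% of all genes, and 0 had them all above, against 23.4%. The middle 80% of the members lay between −1.84 and −0.72. The ratio is relative to the other genes of the libraries. Scaled by library size alone, the median was −1.95 for the members and −0.73 for all genes, and the distance between them was −1.21 under both scalings.

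**Figure D1:**
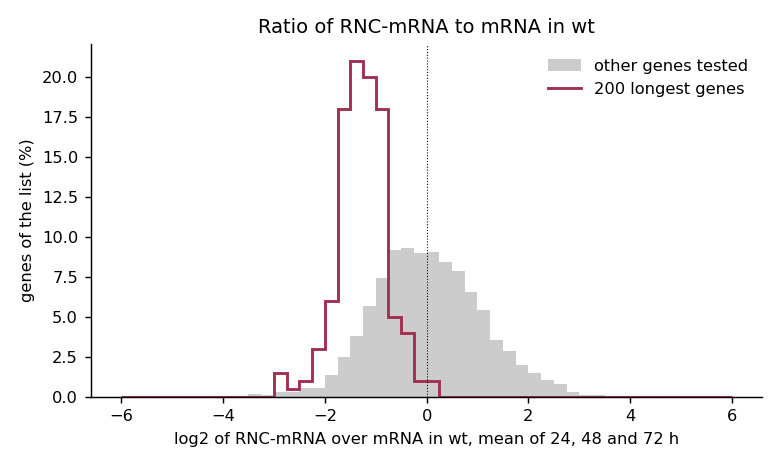
Distribution of the log2 ratio of RNC-mRNA to mRNA in wt, averaged over 24, 48 and 72 h, for the 200 longest genes (line) and the other genes tested (grey), each as a percentage of its list in bins of 0.25. The long genes lie around their median of −1.27 and 198 of them are below 0, while the other genes spread on both sides of 0.

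The 3 longest genes showed this in every wt library. Pipas_chr1-1_0187 had 170 to 369 TMM-scaled CPM in the 6 wt mRNA libraries (median 232), against 56.9 to 104 in the 6 RNC-mRNA libraries (median 79.2). Its log2 ratio was −1.61 (SE 0.16, adjusted p = 5.4e-11 by edgeR). Pipas_chr2-1_0744 had 159 to 248 CPM in mRNA (median 208), against 29.3 to 61.0 in RNC-mRNA (median 43.6), a log2 ratio of −2.21 (SE 0.15, adjusted p = 7.1e-16). Both genes had no overlap between the assays. Pipas_chr1-4_0571 had 233 to 429 CPM in mRNA (median 352), against 50.5 to 115 in RNC-mRNA (median 75.9), a log2 ratio of −2.10 (SE 0.11, adjusted p = 1.1e-18), also with no overlap.

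The lowest ratios of the list belonged to genes with few RNC-mRNA reads. Pipas_chr2-1_0586, of 3623 bases, had 18.0 to 27.9 CPM in wt mRNA (median 24.6), against 0.502 to 4.38 in RNC-mRNA (median 3.22). Its ratio was 8.0-fold lower than equality (log2 −3.0, SE 0.27, adjusted p = 2.2e-12 by edgeR), resting on 2 to 18 reads in the RNC-mRNA libraries. Pipas_chr2-1_0697, of 4487 bases, had 39.9 to 53.7 CPM in mRNA (median 45.8), against 2.85 to 9.62 in RNC-mRNA (median 6.29), a 7.66-fold lower ratio (log2 −2.94, SE 0.19, adjusted p = 1.9e-16). It had 10 to 33 RNC-mRNA reads per library. At the other end, 6 of the 200 genes were not called in wt. Pipas_chr3_0506 had 618 to 728 CPM in mRNA (median 646), against 503 to 968 in RNC-mRNA (median 584), so that the assays overlapped, with a log2 ratio of 0.00 (SE 0.13). Pipas_chr1-4_0546 had 591 to 803 CPM in mRNA (median 747), against 572 to 692 in RNC-mRNA (median 671), with a log2 ratio of −0.12 (SE 0.08, adjusted p = 0.15).

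The wt ratio fell with length over most of the range, and not only at the edge of the list. In successive bins of 200 genes by rank of length, the 200 longest had a median of −1.27, the next 200 (2867 to 3566 bases) −1.03, and the bins after it −0.91, −0.71 and −0.71. The median was closest to 0 in the bin of 1241 to 1328 bases, with −0.04, and reached 1.32 in that of 422 to 512 bases. The share of genes called lower fell from 97.0% in the first bin to 91.0%, 84.0% and 78.5% in the next 3. Across the 4802 ranked genes of 1 part, Spearman's rho between length and the ratio was −0.58. Genes are not independent replicates, all points come from the same libraries, and the value is a description. Whether the different handling of the RNC-mRNA and mRNA aliquots contributed to the fall with length was not tested. Within the 200 genes rho was −0.30, and the 50 longest had a median of −1.47 against −1.0 in the 50 shortest of them, with 50 of 50 called lower in both. The 200 shortest ranked genes had a median of 0.80, but most of these are genes of more than 1 part whose listed length is in doubt.

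**Figure D2:**
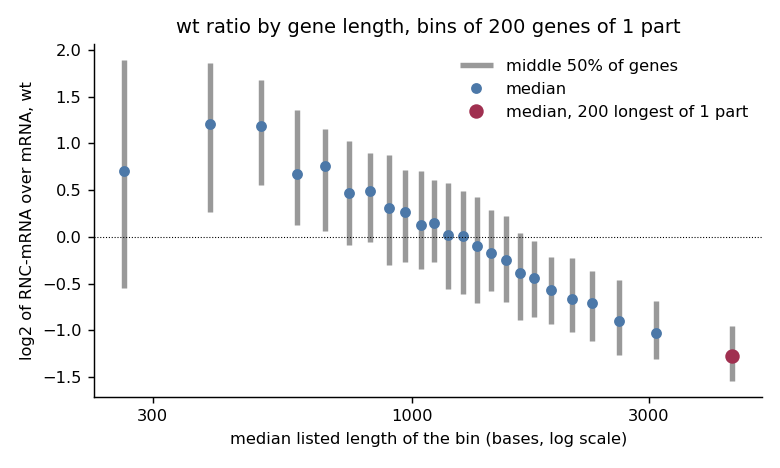
Log2 ratio of RNC-mRNA to mRNA in wt against length, for bins of 200 ranked genes listed in 1 part. Points are medians at the median length of the bin (log axis) and bars the middle 50% of genes. The longest bin (red) has a median of −1.27, and the medians rise as genes shorten, to 1.21 in the bin with a median length of 390.5 bases, before 0.71 in that of 263.

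Since the long genes had a low level per base, they were set beside other genes of a like level. The ranked genes of 1 part were divided in 4 classes of equal size by mean wt mRNA RPKM. In the lowest class the median log2 ratio was −1.33 for the 89 members and −0.48 for the 1112 other genes. It was −1.21 for 60 members and −0.30 for the others in the second class, and −1.17 for 32 members and 0.00 for the others in the third. In the highest class it was −0.84 for 15 members and 0.56 for the others. Members were called lower in 89 of 89, 59 of 60, 32 of 32 and 10 of 15 cases. The difference between members and other genes was thus present in each class. It was widest in the highest class, with −0.84 against 0.56, though only 15 members were there. The members of that class were also nearer to equality than those of the lower classes, while the other genes of the class had a median above it. When classes of all tested genes were made by CPM instead, which rises with length, the medians of the members were −1.67, −1.29, −1.23 and −1.30 from the lowest to the highest, against 0.02, −0.16, −0.16 and 0.28 for the other genes.

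The pattern held in the other strains. Averaged over times, the median log2 ratio of the 200 genes was −1.40 in *rps7*∆, where 199 were called lower, and −1.17 in *rps25*∆, where 196 were. It was −1.16 in *rpl38*∆ with 197 called lower, and −1.25 in *rpl9a*∆ with 192. Of all genes, 38.7% were lower and 38.7% higher in *rps7*∆, 38.3% and 37.9% in *rps25*∆, 38.3% and 34.8% in *rpl38*∆, and 37.7% and 39.6% in *rpl9a*∆. In these averages 0 of the 200 genes were called higher in any strain, and between 193 and 200 had an unadjusted p under 0.05. Of the 200 genes, 128 were called lower in each of the 15 groups of strain and time, against 9.58% of all genes tested. 170 had a negative log2 ratio in all 15, against 24.3%, and 179 were called lower in at least 12 of the 15, against 19.5%. Without the library that stood apart 175 had a negative log2 ratio in all 15, against 25.1% of all genes tested. Without the other one of its group 165 had so, against 23.1%. Such fits leave 1 library in the group, so their calls are not counted here, though the calls shifted in both. In the *rpl9a*∆ average the absence of higher calls did not hold without the other one of the group.

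The share of reads describes the division between the assays in another way, without a test. It weights genes by their reads and is not set against the median gene, so it need not move with the median ratio. The 200 genes are 3.83% of the ranked genes and hold 13.5% of their summed length. They took 3.40% to 6.08% of the host gene reads of an mRNA library (median 4.83%) and 0.983% to 2.20% of an RNC-mRNA library (median 1.62%). The highest RNC-mRNA share was below the lowest mRNA share. Divided by the mRNA share of the same strain, time and replicate number, the RNC-mRNA share ran from 0.241 to 0.430. In wt mRNA the share was 4.81% and 4.49% at 24 h, 4.96% and 4.84% at 48 h, and 4.61% and 4.64% at 72 h. In wt RNC-mRNA it was 1.16% and 1.15%, then 1.39% and 1.30%, then 1.86% and 1.63%. The wt mRNA share thus stayed between 4.49% and 4.96%, and both RNC-mRNA values at 72 h were above those at the earlier times.

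**Figure D3:**
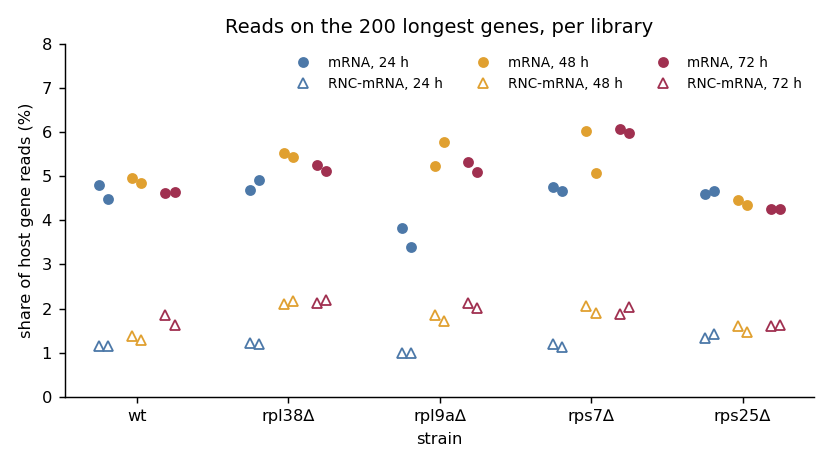
Percentage of host gene reads on the 200 longest genes in each library, by strain and time, for mRNA (filled circles) and RNC-mRNA (open triangles), with 2 replicates side by side. All mRNA libraries are at or above 3.40% and all RNC-mRNA libraries at or below 2.20%.

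The shares also differed between strains. Over the 6 mRNA libraries of a strain, the lowest, median and highest share was 4.49%, 4.73% and 4.96% in wt. It was 4.69%, 5.18% and 5.53% in *rpl38*∆ and 3.40%, 5.17% and 5.78% in *rpl9a*∆. It was 4.66%, 5.53% and 6.08% in *rps7*∆, and 4.26%, 4.40% and 4.67% in *rps25*∆. The median was lowest in *rps25*∆, and the *rpl9a*∆ range was the widest, with its libraries at 24 h at 3.82% and 3.40%. In these 2 libraries the 10 genes with the most reads took 15.7% and 16.2% of the reads, the highest values among the mRNA libraries. Whether these genes lowered the share of the long genes was not tested.

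The second question was whether the ratio of the long genes changed with time. In wt the median log2 ratio over the 200 genes was −1.47 at 24 h, −1.35 at 48 h and −0.92 at 72 h, with all genes at −0.03, −0.02 and −0.10. The number called lower was 191, 192 and 172, against 33.1%, 31% and 33.6% of all genes. At 72 h 2 were called higher, Pipas_chr3_0506 and Pipas_chr4_0186, with log2 ratios of 0.57 and 0.61 (adjusted p = 0.030 and 0.018 by edgeR). These were named after their values were seen. Without either wt mRNA library at 72 h, or without the first wt RNC-mRNA library at 72 h, 0 were called higher, 1 was without the second, and 4 were without either *rpl9a*∆ RNC-mRNA library at 72 h. From 24 to 48 h 0 of the 200 genes were called changed, by edgeR with adjustment, and 10 had an unadjusted p under 0.05. Over all genes 0.0% rose and 0.0191% fell.

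From 24 to 72 h the wt ratio of the 200 genes rose by a median of 0.52 on the log2 scale, with all genes at −0.02. 34 rose (17.0%) and 0 fell, against 2.54% and 1.74% of all genes tested, and 178 had a positive change. The count was 18 without replicate 1 of the wt mRNA at 24 h or without replicate 2 of the wt mRNA at 72 h. It was 53 without either of the *rpl9a*∆ RNC-mRNA libraries at 72 h, which enter only through the shared estimate of the spread, and 4.71% of all genes rose then. By DESeq2's Wald test 64 rose, against 5.86% of all genes. The median change, relative to all genes, was 0.53 under each of 3 scalings. Of the 100 longest genes 25% rose, and of the 400 longest 11%.

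The largest increases came with a rise in RNC-mRNA and a fall in mRNA. Pipas_chr2-2_0142, of 6647 bases, had 69.0 and 65.1 CPM in wt RNC-mRNA at 24 h, 71.3 and 57.6 at 48 h, and 266 and 288 at 72 h. Its wt mRNA was at 407 and 320 CPM at 24 h, 253 and 252 at 48 h, and 255 and 232 at 72 h. Both replicates at 72 h were thus far above the 4 earlier RNC-mRNA libraries. The ratio rose 6.17-fold from 24 to 72 h (log2 2.62, SE 0.42, adjusted p = 1.4e-04 by edgeR). Pipas_chr4_0186, of 4058 bases, had 25.6 and 31.5 CPM in RNC-mRNA at 24 h, 21.5 and 18.8 at 48 h, and 120 and 86.1 at 72 h. Its mRNA was at 94.4 and 99.3, then 70.0 and 66.9, then 66.0 and 69.8 CPM. The ratio rose 5.16-fold (log2 2.37, SE 0.32, adjusted p = 7.6e-06).

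Inside the deletion strains the median change from 24 to 72 h over the 200 genes was 0.48 in *rpl38*∆, with all genes at 0.07, and 0.13 in *rpl9a*∆, with all genes at 0.12. It was 0.18 in *rps7*∆ and 0.28 in *rps25*∆, with all genes at 0.08 and 0.01. In *rpl38*∆ 64 of the 200 rose and 1 fell, against 13.3% and 6.54% of all genes, and 41 rose without replicate 2 of the *rpl38*∆ mRNA at 24 h. In *rpl9a*∆ 51 rose and 14 fell, against 22.5% and 12.8%. The median change in *rpl9a*∆ was 0.13 when the library that stood apart was left out, with all genes at 0.08. It was 0.02 when the other one of its group was, with all genes at 0.05. The *rpl9a*∆ counts shifted when single libraries were left out. In *rps7*∆ 9 rose and 1 fell, against 5.27% and 2.08%. The 9 became 2 to 5 without any of 5 *rps7*∆ libraries at 24 or 72 h, and 42 by library size alone, where 17.8% of all genes rose. In *rps25*∆ 6 rose and 1 fell, against 1.43% and 3.21%, and 11 rose without either *rpl9a*∆ RNC-mRNA library at 72 h. Already from 24 to 48 h 33 of the 200 rose in *rpl38*∆ and 0 fell (8.17% and 5.13% of all genes, 70 of the 200 with an unadjusted p under 0.05), and in *rps7*∆ 14 rose and 0 fell (5.4% and 2.31%, 46 unadjusted). In *rps25*∆ 6 rose and 2 fell (3.0% and 4.2%), and in *rpl9a*∆ 0 were called (0.401% and 0.0%, 13 unadjusted).

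The values per pair of libraries show the course in each strain. For each mRNA and RNC-mRNA library of the same strain, time and replicate number, the median log2 ratio over the 200 genes minus that over all genes was below 0 in 30 of 30, from −1.50 to −0.83. In wt it was −1.47 and −1.46 at 24 h, −1.32 and −1.40 at 48 h, and −0.85 and −0.83 at 72 h. In *rpl38*∆ it was −1.33 and −1.47, then −1.17 and −1.07, then −0.96 and −1.02. In both strains the values at 72 h did not overlap those at 24 h. In *rpl9a*∆ it was −1.27 and −1.25, then −1.17 and −1.41, then −1.20 and −1.13. The *rpl9a*∆ values at 72 h did not overlap those at 24 h either, though those at 48 h were further apart. In *rps7*∆ it was −1.42 and −1.50, then −1.37 and −1.18, then −1.47 and −1.42. The *rps7*∆ values at 24 and 72 h thus overlapped. In *rps25*∆ it was −1.32 and −1.32, then −1.16 and −1.19, then −1.08 and −1.0, again without overlap of 24 and 72 h. Replicates were apart by a median of 0.066 and at most by 0.235, in *rpl9a*∆ at 48 h, whose mRNA replicates also lay apart.

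**Figure D4:**
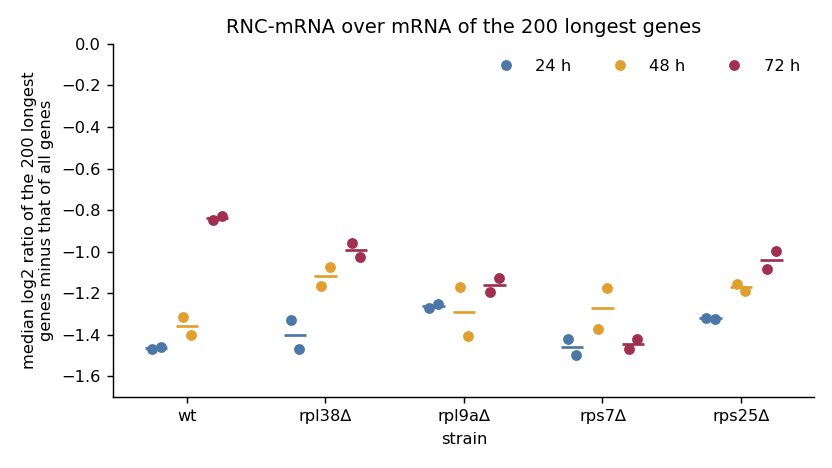
Median log2 ratio of RNC-mRNA to mRNA over the 200 longest genes minus the median over all genes, for each mRNA and RNC-mRNA library of equal replicate number (points) with their mean (line), by strain and time. All 30 points lie below 0, from −1.50 to −0.83, and the wt points at 72 h (−0.85 and −0.83) are the highest.

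The third question was how deletion of a ribosomal protein gene changed the ratio of the long genes. All 4 comparisons share the wt libraries. Averaged over times, the median log2 change against wt was −0.17 in *rps7*∆, 0.08 in *rps25*∆, 0.03 in *rpl38*∆ and 0.04 in *rpl9a*∆, and the medians of all genes were within 0.07 of 0. In *rpl38*∆ 10 of the 200 rose and 4 fell, against 6.11% and 5.15% of all genes. In *rpl9a*∆ 8 rose and 4 fell, against 4.94% and 2.73%, and in *rps25*∆ 10 rose and 4 fell, against 8.13% and 7.67%. In these 3 strains, under TMM scaling, 4.0% to 5.0% of the long genes were higher and 2.0% lower. These shares rest on 4 to 10 genes each and in *rpl9a*∆ were near those of all genes. No difference between the long genes and all genes is read from them. The *rpl9a*∆ counts were 10 and 9 without the library that stood apart, against 6.56% and 4.52% of all genes, and 23 and 13 without the other one of its group, against 12.7% and 10.1%. Without either of them, the counts were 18 and 8 in *rpl38*∆ and 16 and 7 in *rps25*∆, where calls also rose over all genes, to 9.01% and 9.35%, and to 10.5% and 11%. Scaled by library size alone, all genes had medians of 0.19 to 0.27 in these strains. Then 29.5% of the members rose in *rpl38*∆ (25% of all genes), 18.5% in *rpl9a*∆ (20.5%) and 18.5% in *rps25*∆ (18.1%), and 1.0%, 0.0% and 1.0% fell (1.34%, 0.744% and 3.76%).

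By time, these 3 strains had few calls at 24 h. In *rps25*∆ 11 rose and 1 fell (4.45% and 1.98% of all genes), in *rpl9a*∆ 2 and 0 (0.134% and 0.114%), and in *rpl38*∆ 0 and 0 (0.153% and 0.42%), where 24 had an unadjusted p under 0.05. At 48 h the median change was 0.20 in *rps25*∆ and 0.24 in *rpl38*∆, with 7 and 4 that rose and 0 that fell in both (3.45% and 4.48%, then 3.09% and 3.82%). In *rpl9a*∆, where the replicates lay apart, 0 were called at 48 h (0.0763% and 0.0382%, 12 unadjusted). At 72 h 7 rose and 12 fell in *rpl38*∆ (7.38% and 4.43%), and 3 rose and 8 fell in *rps25*∆ (3.74% and 4.33%). In *rpl9a*∆ the median at 72 h was −0.18, with all genes at 0.13, and 20 rose and 30 fell (16.5% and 8.24%). Without the library that stood apart the median was −0.18, with all genes at 0.10. Without the other one of its group it was −0.17, with all genes at 0.04. The number of calls depended on single wt or *rpl9a*∆ libraries of this time, among the long genes and over all genes. With library size alone 29 rose and 12 fell in *rpl9a*∆ at 72 h, against 26.2% and 4.12% of all genes.

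In *rps7*∆ the split was another one. Averaged over times 2 of the 200 rose and 32 fell, against 9.65% and 7.5% of all genes. Of the 200, 53 had a positive change, while the median change over all genes was −0.0016. At 24 h 3 rose and 5 fell, against 3.66% and 3.24%, and at 48 h 2 rose and 1 fell, against 2.44% and 1.47%. At 72 h the median change was −0.44, with all genes at 0.08, and 1 rose and 40 fell, against 5.46% and 4.18%. The count of 40 was between 22 and 26 without any of the wt mRNA libraries at 72 h, the *rps7*∆ mRNA libraries at 72 h or replicate 2 of the *rps7*∆ RNC-mRNA at 72 h. Scaling by library size alone moved the median of all genes to 0.30 and that of the members to 0.13 in the average over times, and 29 (14.5%) then rose and 5 (2.5%) fell, against 31.5% and 1.37% of all genes. The split of the members relative to equality thus turned, while their share of higher calls stayed below that of all genes. The distance between the members and all genes stayed at −0.17. At 72 h 5 rose and 13 fell under this scaling, against 27.0% and 1.34%.

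**Figure D5:**
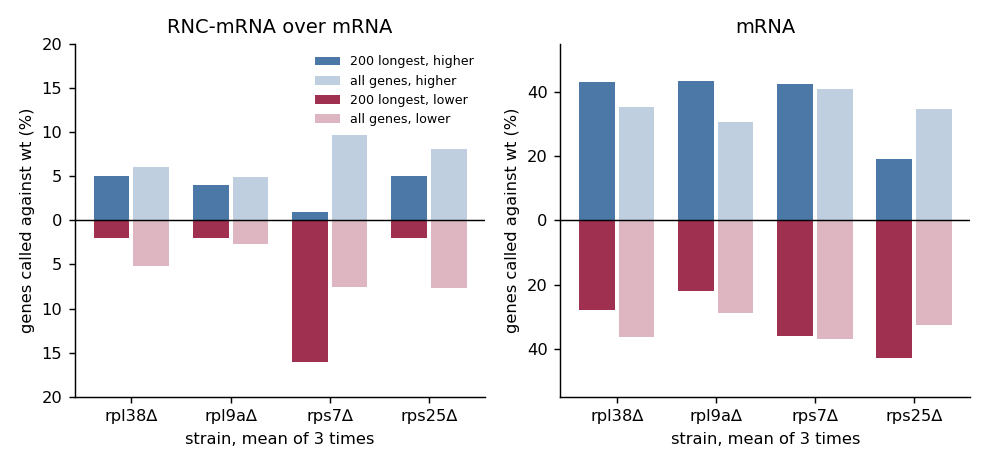
Percentage of genes called higher (up, blue) or lower (down, red) than wt at an adjusted p under 0.05, averaged over the 3 times, for the 200 longest genes (dark) and all genes tested (light), in the ratio of RNC-mRNA to mRNA (left) and in mRNA (right). In the ratio, 16.0% of the long genes are lower in *rps7*∆ against 7.5% of all genes, and with library size alone as the scaling 14.5% of the long genes are higher and 2.5% lower in *rps7*∆, against 31.5% and 1.37% of all genes.

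The strain effect at 72 h was set against that at 24 h in the same fit. For *rps7*∆ 16 of the 200 genes had a lower change at 72 h than at 24 h and 2 a higher one, against 2.82% and 3.42% of all genes. For *rps25*∆ it was 15 and 2, against 3.99% and 1.95%, for *rpl9a*∆ 27 and 7, against 4.83% and 9.12%, and for *rpl38*∆ 2 and 2, against 1.22% and 3.01%. The *rps7*∆ count of 16 ranged from 6 to 27 when 1 library was left out, and that of *rps25*∆ from 8 to 21. For *rpl9a*∆ the median difference over the 200 genes was −0.33 without the library that stood apart, with all genes at 0.12. Without the other one of its group it was −0.46, with all genes at 0.05, and the counts shifted in both fits. For *rpl38*∆ the lower and higher counts became 9 and 8 without its first RNC-mRNA library at 72 h and 11 and 4 without either *rpl9a*∆ RNC-mRNA library at 72 h. With library size alone they were 4 and 5 for *rps7*∆ (1.28% and 11.3% of all genes), 6 and 3 for *rps25*∆ (1.89% and 3.97%), 18 and 9 for *rpl9a*∆ (2.88% and 12.3%), and 1 and 2 for *rpl38*∆ (0.916% and 3.64%). The wt libraries at 24 and 72 h, where the ratio of the long genes rose, are part of each of these differences.

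Pipas_chr3_0506, not called in wt, was among the 2 largest called decreases against wt in 3 strains. In the fourth, *rpl9a*∆, its ratio per pair of libraries had a median of 0.579 and ran from 0.549 to 2.58. The wt median was 0.897. Its mRNA in wt was at 728 and 659 CPM at 24 h, 670 and 632 at 48 h, and 632 and 618 at 72 h, and its RNC-mRNA at 503 and 541, then 610 and 558, then 885 and 968. In *rps7*∆ the RNC-mRNA was at 523 and 540, then 197 and 197, then 368 and 323 CPM, against 1023 and 1006, then 404 and 326, then 708 and 726 in mRNA. RNC-mRNA was thus below mRNA at each time in *rps7*∆, while in wt it was above mRNA at 72 h. The log2 change of the ratio against wt was −0.96 in *rps7*∆ (SE 0.19, adjusted p = 3.4e-04 by edgeR), −0.82 in *rpl38*∆ (SE 0.19, adjusted p = 0.0034) and −0.72 in *rps25*∆ (SE 0.18, adjusted p = 0.0059). Pipas_chr1-4_0546 fell in *rps7*∆ by 0.89 on the log2 scale (SE 0.11, adjusted p = 9.0e-07) and in *rpl9a*∆ by 0.43 (SE 0.11, adjusted p = 0.015). Its RNC-mRNA was at 410 and 417, 169 and 193, and 258 and 198 CPM in *rps7*∆ at the 3 times, and between 572 and 692 in wt, without overlap. In *rpl9a*∆ its call was lost under library size alone (log2 −0.22, adjusted p = 0.17), and the other gene of that direction, Pipas_chr2-2_0263 (−0.39, SE 0.11, adjusted p = 0.026), was also lost there (−0.20, adjusted p = 0.23). The second genes of the lower direction were Pipas_chr2-1_0125 in *rpl38*∆ (−0.65, SE 0.15, adjusted p = 0.0033) and Pipas_chr3_1024 in *rps25*∆ (−0.54, SE 0.12, adjusted p = 0.0026).

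The increases against wt were led by Pipas_FragB_0067, of 4250 bases, in 2 strains. Its ratio was 2.31-fold that of wt in *rps7*∆ (log2 1.21, SE 0.26, adjusted p = 0.0012 by edgeR) and 2.25-fold in *rps25*∆ (log2 1.17, SE 0.26, adjusted p = 0.0017). At 24, 48 and 72 h the log2 change was 1.74, 1.35 and 0.54 in *rps7*∆, and 2.42, 0.61 and 0.49 in *rps25*∆. In wt its mRNA was at 3187 and 2314 CPM at 24 h, 1574 and 1453 at 48 h, and 941 and 926 at 72 h, with 524 and 392, 312 and 237, and 259 and 336 in RNC-mRNA. In *rps7*∆ the mRNA was at 613 and 537, 194 and 186, and 124 and 129 CPM, with 304 and 336, 89.4 and 85.9, and 58.4 and 58.1 in RNC-mRNA. Both assays were thus lower in *rps7*∆ than in wt at every time, and mRNA was lower by the larger factor.

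In *rpl9a*∆ the largest called rise of the ratio was that of Pipas_chr1-4_0571, of 11477 bases, the third of the list by length. Its mRNA was at 172 and 147, 213 and 243, and 162 and 135 CPM in *rpl9a*∆, against 429 and 365, 384 and 339, and 250 and 233 in wt. Its RNC-mRNA was at 47.9 and 42.4, 65.2 and 58.2, and 118 and 123 CPM, against 54.2 and 50.5, 81.1 and 70.7, and 108 and 115. The mRNA values of the strains did not overlap within a time, while the RNC-mRNA values were nearer to each other. The ratio was 1.69-fold that of wt (log2 0.76, SE 0.15, adjusted p = 0.0017 by edgeR). Pipas_chr2-1_0263, of 5267 bases, rose 1.65-fold in *rpl9a*∆ (log2 0.72, SE 0.16, adjusted p = 0.0050) and 1.67-fold in *rpl38*∆ (log2 0.74, SE 0.16, adjusted p = 0.0025). Pipas_chr2-1_0697 had the largest increase in *rpl38*∆ (log2 0.82, SE 0.25, adjusted p = 0.026), which was lost when the second wt or the first *rpl38*∆ RNC-mRNA library of any 1 time was left out (log2 0.60 to 0.79, adjusted p = 0.054 to 0.13). The remaining genes of this kind were Pipas_chr1-1_0117 in *rps7*∆ (log2 0.51, SE 0.10, adjusted p = 2.9e-04) and Pipas_chr3_0568 in *rps25*∆ (log2 0.60, SE 0.10, adjusted p = 3.6e-05).

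The fourth question was how the mRNA of the long genes differed between strains and times, in a fit of the 30 mRNA libraries. Averaged over times, the median log2 change against wt was −0.11 in *rps25*∆, 0.06 in *rps7*∆, 0.08 in *rpl38*∆ and 0.10 in *rpl9a*∆, with all genes within 0.05 of 0. In *rpl38*∆ 86 of the 200 rose and 56 fell, against 35.4% and 36.3% of all genes. In *rpl9a*∆ 87 rose and 44 fell, against 30.8% and 28.9%, and in *rps7*∆ 85 rose and 72 fell, against 41.0% and 36.9%. In *rps25*∆ 38 rose and 86 fell, against 34.7% and 32.7%. Calls of the long genes were thus more often higher in *rpl38*∆ and *rpl9a*∆ and more often lower in *rps25*∆, where those of all genes were nearly even. Library size alone turned the split of *rpl9a*∆ to 55 and 63, against 21% and 38.3% of all genes, and that of *rps25*∆ to 79 and 52, against 50.7% and 20.3%. It made that of *rps7*∆ 149 and 21, against 67.7% and 17.9%. The medians relative to all genes stayed at 0.09, −0.12 and 0.01, so that the members kept their lean relative to all genes in *rpl9a*∆ and *rps25*∆.

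The mRNA split of *rpl9a*∆ changed with time. At 24 h 31 of the 200 were higher than in wt and 75 lower, against 24.9% and 24.1% of all genes. At 72 h 110 were higher and 35 lower, against 33.0% and 32.6%. At 48 h, where the replicates lay apart, it was 44 and 27 (22.6% and 19.1%). In *rps7*∆ 54 were higher and 69 lower at 24 h (33.0% and 30%), 44 and 70 at 48 h (34.7% and 32.2%), and 102 and 37 at 72 h (34.1% and 32.6%). In *rps25*∆ it was 45 and 63 at 24 h (31.8% and 26.5%), 15 and 79 at 48 h (25% and 28.2%), and 35 and 65 at 72 h (26.2% and 24.3%). In *rpl38*∆ it was 51 and 43 at 24 h (25.1% and 24.0%), 65 and 53 at 48 h (29.3% and 31.8%), and 84 and 47 at 72 h (32.5% and 32.0%). Under TMM scaling lower calls were thus the more frequent at 24 h and higher ones at 72 h in *rpl9a*∆ and *rps7*∆, while in *rps25*∆ lower calls were the more frequent at each time. Other scalings were not run by time for mRNA. From 24 to 48 h in wt, 45 of the 200 rose and 11 fell, against 11.0% and 10.8% of all genes. From 24 to 72 h 28 rose and 46 fell, against 14.1% and 15.7% of all genes. These counts were 16 and 23 without replicate 1 of the wt mRNA at 24 h, 16 without replicate 2 at 24 h and 16 and 24 without replicate 2 at 72 h, and 29 fell without replicate 1 at 72 h. With library size alone 50 rose and 23 fell, against 27.4% and 8.07% of all genes.

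Pipas_chr4_0832, of 4511 bases, had the largest increase in 3 of the strains. In wt it was at 220 and 191 TMM-scaled CPM at 24 h, 426 and 464 at 48 h, and 734 and 665 at 72 h, which is a 3.41-fold rise in wt from 24 to 72 h (log2 1.77, SE 0.15, adjusted p = 5.6e-08 by edgeR). In *rpl38*∆ it was at 1700 and 1719, 2991 and 3288, and 1850 and 1791 CPM, 5.35-fold above wt on average (log2 2.42, SE 0.09, adjusted p = 1.3e-15). In *rpl9a*∆ it was at 1270 and 1078, 1438 and 2043, and 3596 and 3222 CPM, 4.78-fold above wt (log2 2.26, SE 0.09, adjusted p = 1.3e-14). No library of either strain overlapped wt at the same time. In *rps25*∆ it was at 1001 and 1018, 2125 and 2028, and 791 and 863 CPM, 3.0-fold above wt (log2 1.59, SE 0.08, adjusted p = 1.1e-12).

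Pipas_chr2-1_0050, of 3869 bases, was among the 2 largest decreases in 3 strains, and lower in the fourth as well. In wt it held a steady level, with 1325 and 1267, 1289 and 1281, and 1156 and 1164 CPM at the 3 times. In *rps7*∆ it was at 230 and 236, 125 and 109, and 111 and 108 CPM, 8.64-fold lower (log2 −3.11, SE 0.07, adjusted p = 1.8e-19 by edgeR). In *rpl38*∆ it was at 742 and 737, 457 and 422, and 330 and 265 CPM (log2 −1.44, SE 0.06, adjusted p = 3.4e-14). In *rpl9a*∆ it was at 914 and 821, 589 and 720, and 259 and 236 CPM (log2 −1.26, SE 0.06, adjusted p = 8.4e-13). In *rps25*∆ it was at 341 and 337, 335 and 334, and 728 and 732 CPM. In each of the 4 strains every library was below every wt library, and in *rpl38*∆ and *rpl9a*∆ the values at 72 h were the lowest.

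Other genes of the list with large mRNA changes were the following. Pipas_FragB_0067 was 6.58-fold lower in *rps7*∆ than in wt (log2 −2.72, SE 0.12, adjusted p = 8.5e-15 by edgeR), and in wt it fell 2.94-fold from 24 to 72 h. Pipas_chr3_1084 was 4.30-fold lower in *rpl38*∆ (log2 −2.10, SE 0.15) and 3.55-fold lower in *rps25*∆ (log2 −1.83, SE 0.15). It was at 772 to 1024 CPM in wt, 140 to 331 in *rpl38*∆ and 153 to 345 in *rps25*∆, with no overlap. Pipas_chr2-2_0299 was 3.24-fold lower in *rps25*∆ and 2.15-fold lower in *rpl9a*∆. Pipas_chr1-1_0211, of 9386 bases, was 2.80-fold higher in *rpl38*∆ (log2 1.49, SE 0.13). It was at 229 and 254 CPM at 24 h, 609 and 636 at 48 h, and 933 and 868 at 72 h in *rpl38*∆, against 157 to 229 in wt. Pipas_chr2-1_0172 was 3.31-fold higher in *rpl9a*∆, Pipas_chr1-1_0161 and Pipas_chr3_0858 were 2.96-fold and 2.51-fold higher in *rps7*∆, and Pipas_FragB_0065 was 1.86-fold higher in *rps25*∆. From 24 to 72 h in wt, Pipas_chr3_0220 rose 2.09-fold and Pipas_chr2-2_0387 fell 2.54-fold.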

How the data were processed

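Per the labels and the study's methods, RNC-mRNA was pelleted through sucrose, polyA+ mRNA was selected in both assays, and bcl2fastq 2.17 is among the named tools. For the aligner, the read counter and the assembly, a name was not given in the sources used here. It is therefore unknown how reads of near-identical genes were split. The authors deposited raw read counts for 5319 host genes per library and an RPKM on the listed length, which recomputed to within 0.000117%. The reads of Phy, deposited in a table of its own, entered each library as 1 gene. Per-sample columns left out were 0.

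Groups are combinations of strain, time and assay as labelled, with 2 separate biological samples each by the study's methods. Counts were fitted with edgeR 4.0.16 in R 4.3.3, by quasi-likelihood with TMM scaling and a mean for each group. Genes needed more than 10 reads in at least 2 libraries of the fit. The ratio was a contrast over 60 libraries (30 groups, 5241 genes, 30 residual degrees of freedom), and mRNA was fitted over 30 libraries (15 groups, 5229 genes). P-values were adjusted by Benjamini-Hochberg over all genes of a fit, with a threshold of 0.05. Values per pair of libraries used CPM (reads per 1000000 host gene reads) with 0.5 added.

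The 200 genes, the lists and the tests were chosen with earlier results of these data known. Named genes are the 3 longest, the 2 at each side of the length limit, the highest and lowest by mean mRNA RPKM, and per comparison the 2 largest called changes in each direction, which for averages had the same sign at all 3 times. As alternatives, other scalings (library size alone, size factors of DESeq2), the Wald test of DESeq2 1.42.0, other filters, the replicate block, lists of 100 or 400 genes, RPKM, another pseudocount and leaving out each library were tried. A library left alone in its group is taken to vary as libraries elsewhere do. Classes by RPKM, beside planned classes by CPM, and the values of *rpl9a*∆ and over 15 groups without 1 *rpl9a*∆ library were chosen after seeing the data. Fits were tested on simulated counts. Python 3.11.15, pandas 2.3.3 and matplotlib 3.10.9 made tables and figures.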

Additional observations from a re-analysis of the deposited data

Results flagged for a closer look

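A test of the difference marked 5 named genes whose strain effect on the ratio of RNC-mRNA to mRNA at 72 h differed from that at 24 h (edgeR, strain by time contrast in the 60-library fit, adjusted over all genes). All differences share the wt libraries. Pipas_chr2-2_0142 and Pipas_chr4_0186 were named for the largest rises of the wt ratio from 24 to 72 h, and that rise enters each difference with its sign turned, so for these genes the values are a description and their p-values no independent support. In *rps7*∆ the log2 difference was −2.39 for Pipas_chr2-2_0142 (adjusted p = 0.017), −1.78 for Pipas_chr4_0186 (adjusted p = 0.015) and −1.25 for Pipas_chr1-4_0571 (adjusted p = 0.034). In *rps25*∆ it was −2.38 (adjusted p = 0.013), −2.42 (adjusted p = 8.3e-04) and −1.7 (adjusted p = 0.0037) for the same 3 genes. For Pipas_chr2-2_0142 the change against wt was 0.07 at 24 h and −2.32 at 72 h in *rps7*∆, and 0.96 and −1.42 in *rps25*∆. Its RNC-mRNA in wt rose to 266 and 288 CPM at 72 h, while in *rps7*∆ it was at 23.2 and 23.2 and in *rps25*∆ at 58.7 and 66.2. For Pipas_chr4_0186 the change was 0.18 and −1.60 in *rps7*∆ and 0.92 and −1.50 in *rps25*∆, and for Pipas_chr1-4_0571 it was 0.34 and −0.92, then 1.09 and −0.61.

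In *rpl9a*∆ the difference was 2.03 for Pipas_FragB_0067 (adjusted p = 0.028) and −1.06 for Pipas_chr3_1024 (adjusted p = 0.017). When the RNC-mRNA library that stood apart was left out, they were 1.39 (adjusted p = 0.14) and −1.10 (adjusted p = 0.022). Calls were lost in 8 of 60 fits without 1 library for Pipas_FragB_0067 in *rpl9a*∆, in 11 for Pipas_chr1-4_0571 in *rps7*∆, and in 1 each for Pipas_chr3_1024 in *rpl9a*∆ and Pipas_chr4_0186 in *rps7*∆. The call of Pipas_chr1-4_0571 in *rps7*∆ was also lost under library size alone and under the replicate block. No direction turned in these fits.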

How the results depend on the processing

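The lower wt ratio of the long genes stood under each alternative run, with 193 to 196 genes called lower and 0 higher when 1 library was left out. With library size alone, which moves all genes, the ratio against wt had 59 higher and 2 lower in *rpl38*∆ (25% and 1.34% of all genes), 37 and 0 in *rpl9a*∆ (20.5% and 0.744%), 29 and 5 in *rps7*∆ (31.5% and 1.37%), and 37 and 2 in *rps25*∆ (18.1% and 3.76%). In mRNA it gave 55 higher in *rpl9a*∆ (21%), 149 higher and 21 lower in *rps7*∆ (67.7% and 17.9%), 79 and 52 in *rps25*∆ (50.7% and 20.3%), and 50 and 23 in wt from 24 to 72 h (27.4% and 8.07%). By DESeq2's Wald test 64 genes rose in the wt ratio from 24 to 72 h, against 307 of all 5241 genes tested. By the same test 8 were lower in *rpl9a*∆, against 245. By its size factors 7 were lower in *rpl9a*∆ (183 over all genes) and 6 higher in *rps25*∆ (348). With a filter in every library 4 were higher in *rps7*∆, against 492 of 4533 genes. Of the 400 longest genes 11% rose in the wt ratio from 24 to 72 h (2.54% of all genes). In this list 5.75% were higher in *rps7*∆ (9.65% of all genes) and 8.75% in *rps25*∆ (8.13%). Of the 100 longest 1% were lower in *rpl38*∆ (5.15%), 1% in *rpl9a*∆ (2.73%) and 4% in *rps25*∆ (7.67%).

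When each library was left out in turn, 18 to 53 genes rose in the wt ratio from 24 to 72 h and 0 to 1 fell. The ratio against wt had 5 to 18 higher and 4 to 8 lower in *rpl38*∆, 6 to 23 and 1 to 13 in *rpl9a*∆, 2 to 6 and 25 to 42 in *rps7*∆, and 6 to 16 and 3 to 7 in *rps25*∆. In wt mRNA 16 to 40 rose and 23 to 69 fell from 24 to 72 h. For the genes named, 314 alternatives kept the call, 11 lost it and 0 turned it. The cause of these shifts was not tested. Genes with fewer than 20 RNC-mRNA reads per library, such as Pipas_chr2-1_0586, limit the precision of their ratio.

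With each combination of strain, time and replicate number as a block, which pairs same-numbered libraries, 195 genes were lower in wt. Of all 5241 genes tested 2183 were lower. In this fit 43 rose in the wt ratio from 24 to 72 h, against 173 over all genes. The ratio against wt then had 13 higher and 4 lower in *rpl38*∆ (353 and 375 over all genes), and 7 and 5 in *rpl9a*∆ (294 and 201). It had 3 and 33 in *rps7*∆ (578 and 485), and 14 and 4 in *rps25*∆ (490 and 521). The study's methods state that a sample was divided between the assays, but not that equal replicate numbers mark one such sample. Same-numbered mRNA and RNC-mRNA libraries deviated together with correlations from −0.20 to 0.86 over the 15 groups, so the pairing is not settled by the data.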
